A study of Homo sapiens with 8 samples.

Results

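METTL7B, CLRN3, GAS2, SGK2 and ANG are what remains of an HNF transcriptional signature once its HNF regulators, AKR1C3, UGT2B15, MUC13 and APOH are set aside. They were examined here with RNASE4, which is outside the signature and shares promoters with ANG. These 6 genes were found by symbol among 57603 gene identifiers, and all 6 passed the filter, which asks for 10 or more normalized counts on average over the 8 libraries. The study drew up the signature of 11 genes, HNF regulators and their direct targets, from other samples, so the direction of its 5 members here is not independent evidence of how such targets behave. The libraries came from 22Rv1, an established castration-resistant prostate cancer cell line grown in RPMI with serum, in which a gastrointestinal gene programme is active. The cells carried a GFP transgene, as the control, or an HNF4G transgene, both driven by the MSCV viral promoter, and all retained the endogenous HNF4G gene. Both lines were kept for 24 hours with DMSO or with ABBV-075 (mivebresib) at 25 nM. That gave 4 groups of 2 libraries (the GFP groups GFP-DMSO and GFP-ABBV-075, and the HNF4G groups HNF4G-DMSO and HNF4G-ABBV-075), with poly-A captured RNA sequenced in each. Values are normalized counts, the reads of a gene divided by 1 size factor per library, and pairs of values are given for library 1 and then library 2.

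HNF4G encodes a nuclear receptor that binds DNA near genes of liver, gut and kidney epithelium, where HNF1 family homeodomain proteins often bind beside it. ABBV-075 blocks the bromodomains of the BET proteins, readers of acetylated histones that help RNA polymerase II into elongation at enhancer-driven genes. The design asks whether genes that fall with the inhibitor are held up when HNF4G is supplied from a promoter of a different kind.

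The 8 libraries held 31508275 to 40262678 reads, recovered from the normalized counts. In GFP cells HNF4G itself read 1088 and 993 normalized counts under DMSO, against 206 and 213 under ABBV-075. In HNF4G cells it read 10109 and 12104 under DMSO, against 43972 and 34116 under ABBV-075, with endogenous and transgene reads counted together. All 11 prostate luminal markers were tested, and ABBV-075 lowered 4 of them (KLK2, KLK3, TMPRSS2 and EPCAM) and raised 1 (FOLH1) in each line. Of the markers of other cells, PTPRC, CD3E, CD68, PECAM1, VWF and CDH5 stood at 4.04 normalized counts or fewer in each library. Of the 3 stromal markers, COL3A1 and DCN fell with ABBV-075 in both lines, and the sum over COL1A1, COL3A1 and DCN ranged in GFP cells from 248 to 261 under DMSO and from 150 to 155 under ABBV-075, and in HNF4G cells from 180 to 255 under DMSO and from 93.2 to 162 under ABBV-075. Their part in the results below was not tested. HNF4G-DMSO library 2 and HNF4G-ABBV-075 library 1 stood apart in composition, with a mean transcript GC content of 46.3% against 47.4% to 47.9% in the other 6. Nothing in the labels ties the 2 libraries of a group to separate cultures. A p-value here therefore measures no more than how far these libraries spread, which could be technical.

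ABBV-075 lowered 5 of the 6 genes in GFP cells, from CLRN3, SGK2 and METTL7B, left at 5.08%, 16.0% and 17.8% of their GFP-DMSO means, to ANG and GAS2, left at 47.4% and 48.8%. In HNF4G cells the same 5 genes fell, to between 23.9% (SGK2) and 67.2% (ANG) of their HNF4G-DMSO means. With the inhibitor present, METTL7B, CLRN3 and SGK2 were higher in HNF4G cells than in GFP cells, by 2.94-, 43.4- and 2.23-fold of the group means. CLRN3 alone among the 6 was called higher in HNF4G cells under DMSO, at 5.59-fold. RNASE4, with 9 to 26 reads per library, was not called in any of these comparisons. The plot of the 6 genes by library shows these levels.

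**Figure D1:**
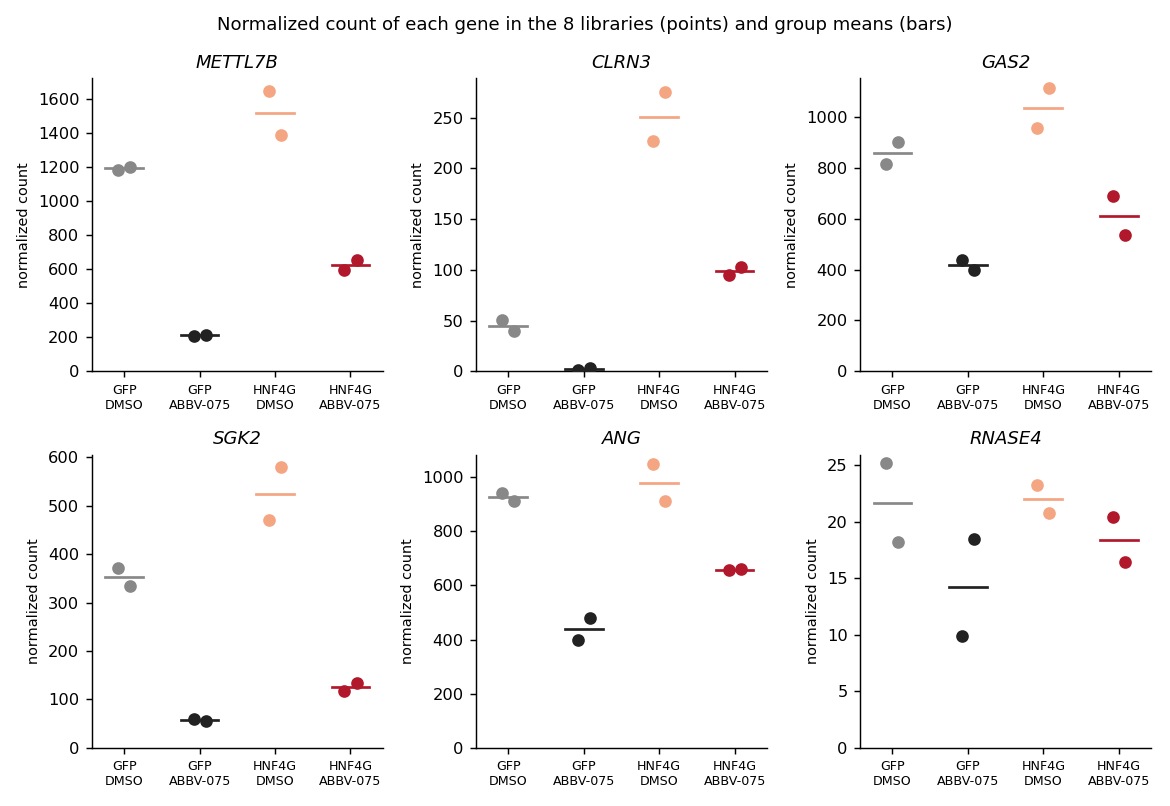
Normalized count (vertical axes, linear from 0) of each of the 6 genes in the 8 libraries. Points are single libraries and bars are means of the 2 libraries of a group. The GFP-ABBV-075 libraries are the lowest for METTL7B, CLRN3, GAS2, SGK2 and ANG. For RNASE4 the groups overlap, except that HNF4G-DMSO lies above both ABBV-075 groups.

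METTL7B (ENSG00000170439, named TMT1B in RefSeq, GRCh38 chromosome 12, 55681736 to 55684611, plus strand) encodes an alkyl thiol methyltransferase of the endoplasmic reticulum and lipid droplets. Of its 1316 exonic bases, 44 overlap ITGA7 on the opposite strand. In the 250 bases before its annotated start, shown because it is 1 of 2 windows with a match to the core of an HNF4 site, the match is in capitals and begins 81 bases before the start (chr12:55681486-55681735, plus strand, RefSeq on GRCh38.p14).
METTL7B: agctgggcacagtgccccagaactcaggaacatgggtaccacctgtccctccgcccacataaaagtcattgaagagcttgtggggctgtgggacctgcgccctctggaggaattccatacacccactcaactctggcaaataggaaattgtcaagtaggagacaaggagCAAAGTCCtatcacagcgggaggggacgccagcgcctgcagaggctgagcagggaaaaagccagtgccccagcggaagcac
The HNF4 core searched was CAAAGTNC on both strands. It occurs in 2.85% of 34943 RefSeq windows of 250 bases, and a match is a description of the letters, not of binding.

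METTL7B read 1183 and 1202 normalized counts in GFP-DMSO and 209 and 215 in GFP-ABBV-075. In HNF4G cells it read 1647 and 1388 under DMSO and 596 and 651 under ABBV-075. None of the 4 groups overlapped, and the order ran from GFP-ABBV-075 through HNF4G-ABBV-075 and GFP-DMSO to HNF4G-DMSO. Complete separation of 2 libraries from 2 has an exact permutation p of 0.333 at the smallest. Non-overlap is therefore only a description, here and below, and its share over all genes is not given. The log2 change with ABBV-075 was -2.49 ± 0.12 (SE) in GFP cells (limma on log2(normalized count + 1), Benjamini-Hochberg adjusted p = 2.07e-05) and -1.28 ± 0.12 in HNF4G cells (adjusted p = 0.000299). HNF4G cells exceeded GFP cells by 1.55 ± 0.12 under ABBV-075 (limma adjusted p = 0.00095). Under DMSO the difference was 0.34 ± 0.12, with a 95% interval of 0.06 to 0.63, and it was not called (limma adjusted p = 0.34). That call was made with GC content and length corrected (0.47, limma adjusted p = 0.0038), and also when HNF4G-DMSO library 2 and HNF4G-ABBV-075 library 1 were left out (0.47, limma adjusted p = 0.0080), a fit with 1 library in each HNF4G group whose spread comes from the GFP pairs alone.

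CLRN3 (ENSG00000180745, GRCh38 chromosome 10, 127877841 to 127892941, minus strand) encodes a membrane protein of the clarin family, whose best known member is mutated in Usher syndrome. All of its 1146 exonic bases lie outside other genes. Its window, the 1 of the 11 distinct windows of these genes with both motifs, has the HNF4 core 49 bases before the start and GTTAAT, a partial HNF1 site, 34 bases before it (chr10:127892942-127893191, minus strand, printed 5′ to 3′ with both matches in capitals, RefSeq on GRCh38.p14).
CLRN3: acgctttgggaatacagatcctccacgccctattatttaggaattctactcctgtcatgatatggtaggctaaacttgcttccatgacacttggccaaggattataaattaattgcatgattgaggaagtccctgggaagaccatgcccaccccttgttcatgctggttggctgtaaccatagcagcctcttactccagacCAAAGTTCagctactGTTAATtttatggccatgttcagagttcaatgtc
GTTAAT, also searched on both strands, occurs in 6.24% of the 34943 windows, and both motifs occur in 0.23%. The motifs were chosen after the windows were seen, so these rates and that of the HNF4 core do not show how unusual a match is. The matches do not overlap each other.

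CLRN3 read 50.3 and 39.4 normalized counts in GFP-DMSO, and 1.10 and 3.46 in GFP-ABBV-075, which are 1 read and 3 reads. In HNF4G cells it read 227 and 275 under DMSO and 95.1 and 103 under ABBV-075. No groups overlapped, and this was the only one of the 6 genes with both HNF4G-ABBV-075 libraries above both GFP-DMSO libraries. Summed over libraries, GFP-DMSO exceeded GFP-ABBV-075 by 20.0-fold (91 reads against 4, exact 95% interval 7.53 to 74.8), and HNF4G-ABBV-075 exceeded GFP-ABBV-075 by 43.9-fold (198 reads against 4, 16.9 to 163). These intervals, scaled by the size factors, cover counting error only. HNF4G-DMSO exceeded HNF4G-ABBV-075 by 2.55-fold (552 reads against 198, 2.16 to 3.02).

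On the log2 scale CLRN3 changed with ABBV-075 by -3.89 ± 0.35 (SE) in GFP cells (limma adjusted p = 0.000198). With so few reads the size depends on the pseudocount, from -4.16 at 0.5 to -2.36 at 8. In HNF4G cells the change was -1.33 ± 0.35 (limma adjusted p = 0.023), and the call was lost without HNF4G-DMSO library 1 (-1.46, limma adjusted p = 0.054) or library 2 (-1.19, limma adjusted p = 0.10), without HNF4G-ABBV-075 library 1 (-1.27, limma adjusted p = 0.058), without both low-GC libraries (-1.13, limma adjusted p = 0.086) and with no filter (limma adjusted p = 0.0503). HNF4G cells were above GFP cells by 5.03 ± 0.35 under ABBV-075 (limma adjusted p = 0.000489). Under DMSO the difference was 2.46 ± 0.35 (limma adjusted p = 0.020). It was not called without GFP-DMSO library 1 (2.63, limma adjusted p = 0.18) or library 2 (2.29, limma adjusted p = 0.22). Nor was it called without HNF4G-DMSO library 1 (2.6, limma adjusted p = 0.090) or library 2 (2.32, limma adjusted p = 0.17), with no filter (limma adjusted p = 0.051) or with untrended limma (adjusted p = 0.051).

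GAS2 (ENSG00000148935, GRCh38 chromosome 11, 22625509 to 22813001, plus strand) encodes growth arrest-specific protein 2, an actin-binding protein cleaved by caspases during apoptosis. It has 11 annotated transcripts, and 315 of its 4202 exonic bases overlap FANCF on the opposite strand. FANCF read 2065 to 2388 normalized counts, above GAS2 in each library, and the strand setting of the counting is not given in the sources used here. GAS2 has 6 windows, of which 2 hold GTTAAT on either strand and none the HNF4 core. The one shown has the match 51 bases before the start (chr11:22674524-22674773, plus strand, RefSeq on GRCh38.p14, match in capitals).
GAS2: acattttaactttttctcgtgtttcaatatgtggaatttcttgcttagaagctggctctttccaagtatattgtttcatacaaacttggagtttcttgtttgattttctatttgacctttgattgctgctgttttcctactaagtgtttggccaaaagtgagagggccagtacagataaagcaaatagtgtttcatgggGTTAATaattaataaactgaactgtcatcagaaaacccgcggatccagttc

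GAS2 read 815 and 902 normalized counts in GFP-DMSO and 438 and 399 in GFP-ABBV-075. The HNF4G-DMSO libraries read 957 and 1115, and the HNF4G-ABBV-075 libraries 688 and 534. The groups did not overlap, but the HNF4G-ABBV-075 pair was the most spread of the 4 on a relative scale (611 ± 109, SD, n = 2). ABBV-075 lowered GAS2 by a log2 change of -1.03 ± 0.16 (SE) in GFP cells (limma adjusted p = 0.0020) and of -0.77 ± 0.16 in HNF4G cells (limma adjusted p = 0.0079). The second call ended when only the 4 libraries of HNF4G cells were fitted (limma adjusted p = 0.053). The differences between HNF4G and GFP cells were 0.27 ± 0.16 under DMSO (95% interval -0.09 to 0.63, limma adjusted p = 0.50) and 0.53 ± 0.16 under ABBV-075 (0.18 to 0.89, limma adjusted p = 0.17). Without HNF4G-ABBV-075 library 2 the latter was 0.72 (limma adjusted p = 0.043), and with GC content and length corrected 0.50 (limma adjusted p = 0.0049).

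SGK2 (ENSG00000101049, GRCh38 chromosome 20, 43558968 to 43588237, plus strand) encodes a serine/threonine kinase of the serum- and glucocorticoid-regulated family, which acts on ion channels and transporters of epithelia. Of its 5438 exonic bases, 365 are shared with an unnamed protein-coding gene of the same strand that was listed at 0 in all 8 libraries. No promoter window of SGK2 was available, so neither motif was searched for there. SGK2 read 372 and 333 normalized counts in GFP-DMSO and 58.4 and 54.2 in GFP-ABBV-075. The HNF4G-DMSO libraries read 470.3 and 579, and those of HNF4G-ABBV-075 117 and 134. No groups overlapped, and both inhibited groups were far below both DMSO groups. The log2 change with ABBV-075 in GFP cells was -2.62 ± 0.16 (SE, limma adjusted p = 4.42e-05) and in HNF4G cells -2.05 ± 0.16 (limma adjusted p = 0.000134), the largest fall of the 6 genes in that line. HNF4G cells were 1.14 ± 0.16 above GFP cells under ABBV-075 (limma adjusted p = 0.012), a call lost without GFP-ABBV-075 library 1 (1.19, limma adjusted p = 0.10) or library 2 (1.09, limma adjusted p = 0.13) and when only the compared groups were fitted (limma adjusted p = 0.080). Under DMSO the difference was 0.57 ± 0.16 (95% interval 0.20 to 0.93, limma adjusted p = 0.21) and was called only with GC content and length corrected (0.61, limma adjusted p = 0.041).

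ANG and RNASE4 encode secreted ribonucleases of the pancreatic RNase A superfamily. Angiogenin, the product of ANG, is a plasma protein made mainly by liver that stimulates blood vessel growth and cleaves tRNAs in stressed cells, and the RNASE4 enzyme cuts RNA beside uridines. The genes share first exons and splice them to separate coding exons. ANG (ENSG00000214274) lies on chromosome 14 from 20684177 to 20698971 and RNASE4 (ENSG00000258818) from 20684560 to 20701216, both on the plus strand of GRCh38. In the exon map of this locus the coding part of ANG spans 9.388 to 9.828 kb and that of RNASE4 15.195 to 15.635 kb from the first base of ANG.

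**Figure D2:**
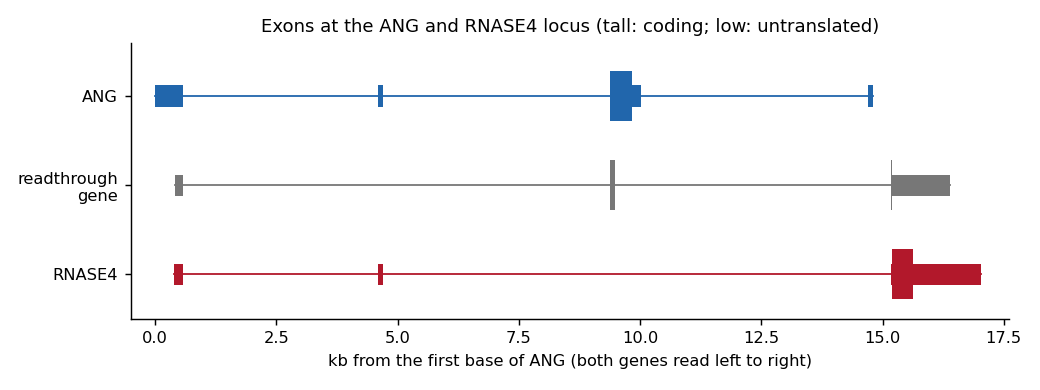
Exons of ANG, of RNASE4 and of an unnamed readthrough gene in GENCODE 44, all transcripts merged, by distance in kb from the first base of ANG (horizontal axis). Tall boxes are coding and low boxes untranslated, and the first exons at 0.383 to 0.581 kb are common to ANG and RNASE4.

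Of the 3 windows of ANG, 2 are also windows of RNASE4. The inner shared window, shown because it is the 1 with a match, has GTTAAT 136 bases before the start (chr14:20688514-20688763, plus strand, RefSeq on GRCh38.p14, match in capitals).
ANG and RNASE4: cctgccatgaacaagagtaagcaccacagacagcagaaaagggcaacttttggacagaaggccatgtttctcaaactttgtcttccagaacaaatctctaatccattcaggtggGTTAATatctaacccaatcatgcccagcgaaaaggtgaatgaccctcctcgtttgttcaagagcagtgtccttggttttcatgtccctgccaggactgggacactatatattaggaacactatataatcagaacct
No HNF4 core was found in these windows.

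ANG read 943 and 910.2 normalized counts in GFP-DMSO and 399 and 479.8 in GFP-ABBV-075. The HNF4G-DMSO libraries had 1050.1 and 910.1 and the HNF4G-ABBV-075 libraries 656 and 661. The DMSO groups of the lines overlapped, while each inhibited group lay below both of them and the GFP one below the HNF4G one. The log2 change with ABBV-075 was -1.08 ± 0.13 (SE) in GFP cells (limma adjusted p = 0.000755) and -0.57 ± 0.13 in HNF4G cells (limma adjusted p = 0.014). The call in HNF4G cells was lost without HNF4G-DMSO library 1 (-0.47, limma adjusted p = 0.077) and when only the 4 libraries of those cells were fitted (limma adjusted p = 0.076). The difference between HNF4G and GFP cells was 0.08 ± 0.13 under DMSO (95% interval -0.23 to 0.38, limma adjusted p = 0.80). Under ABBV-075 it was 0.59 ± 0.13 (0.28 to 0.89) and was not called (limma adjusted p = 0.079), whereas with GC content and length corrected it was (0.71, limma adjusted p = 0.0019).

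RNASE4 had normalized counts of 25.2 and 18.2 in GFP-DMSO and of 9.92 and 18.5 in GFP-ABBV-075. The HNF4G-DMSO libraries had 23.3 and 20.7, and the HNF4G-ABBV-075 libraries 20.4 and 16.5. GFP-ABBV-075 library 1 was the lowest, and library 2 of the same group overlapped GFP-DMSO. The log2 changes with ABBV-075 were -0.62 ± 0.36 (SE) in GFP cells (95% interval -1.44 to 0.20, limma adjusted p = 0.22) and -0.25 ± 0.36 in HNF4G cells (-1.07 to 0.57, limma adjusted p = 0.63). At this depth a change of the size measured for ANG in GFP cells lies inside the first interval. HNF4G cells differed from GFP cells by 0.04 ± 0.36 under DMSO and 0.41 ± 0.36 under ABBV-075 (limma adjusted p = 0.97 and 0.62).

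A ratio of ANG to RNASE4 within a library does not depend on its size factor. ANG had 26.0 to 50.1 reads for each RNASE4 read over the 8 libraries, and the 2 extremes were GFP-ABBV-075 library 2 and GFP-DMSO library 2. RNASE4 made up 2.6% (95% exact Clopper-Pearson interval 1.71 to 3.79) and 1.96% (1.16 to 3.08) of the reads of the pair in GFP-DMSO. Its share was 2.43% (1.12 to 4.56) and 3.70% (2.13 to 5.95) in GFP-ABBV-075. In HNF4G cells it was 2.17% and 2.23% under DMSO and 3.01% and 2.43% under ABBV-075. The intervals of all 8 libraries overlap, and the ratio was not tested between groups.

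How the reads of this locus were assigned limits the comparison of its genes. Only 640 of 2154 exonic bases of RNASE4 (29.7%) are shared with no other gene, because 1394 are shared with the readthrough gene, 292 with ANG and 144 with the antisense gene EGILA. For ANG the unshared part is 944 of 1439 bases (65.6%). The readthrough gene was listed at 0 in all 8 libraries and EGILA at 0 to 2.20 normalized counts. How reads that fit several genes were counted is not given in the sources used here, so the levels of the genes relative to each other depend on a rule that is not known.

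**Figure D3:**
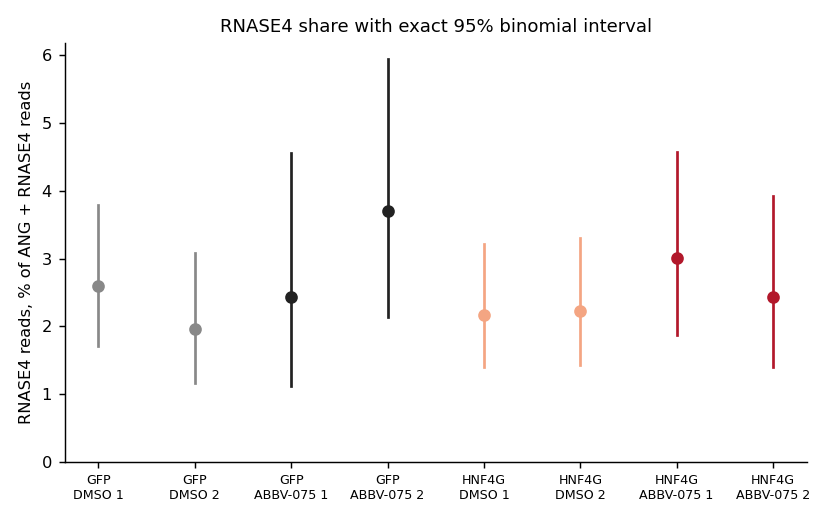
Reads of RNASE4 as a percentage of the reads of ANG and RNASE4 together (vertical axis) in each of the 8 libraries, with exact 95% binomial intervals as bars. The shares run from 1.96% to 3.70%, and all intervals overlap.

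Per kilobase of exon, in GFP-DMSO, METTL7B was the most abundant at 906 ± 10.5 normalized counts per kb (SD, n = 2), followed by ANG at 644 ± 15.9, GAS2 at 204 ± 14.7, SGK2 at 64.8 ± 4.98, CLRN3 at 39.1 ± 6.74 and RNASE4 at 10.1 ± 2.29. No neighbours in that order overlapped. With the same whole counts divided by only the bases shared with no other gene, ANG came to 981 ± 24.3 per kb and METTL7B to 937 ± 10.9. RNASE4 came to 33.9 ± 7.71 and overlapped CLRN3. Only the length changed here, as reads were not restricted to those bases, so these values are not levels measured on them. In HNF4G-DMSO, CLRN3 reached 219 ± 29.6 per kb of exon and overlapped GAS2 at 247 ± 26.6. Exon lengths were those of all annotated transcripts merged. For GAS2 that is 4202 bases, against 2241 in its longest transcript, and for CLRN3 it is 1146 by either measure. The order per kb, and this overlap, may therefore depend on the length used.

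Over the 6 genes, the comparison of ABBV-075 with DMSO called 5 lower and 0 higher in GFP cells, where 19.2% of the 17876 genes tested were called lower. The median log2 change was -1.78 over the 6 genes and -0.01 over all genes tested. In HNF4G cells 5 were called lower and 0 higher, where 18.3% of all genes were called lower, with medians of -1.02 and 0.02. Without RNASE4 all 5 signature members were called lower in each line. The plot of the responses to ABBV-075 sets the 2 lines side by side.

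**Figure D4:**
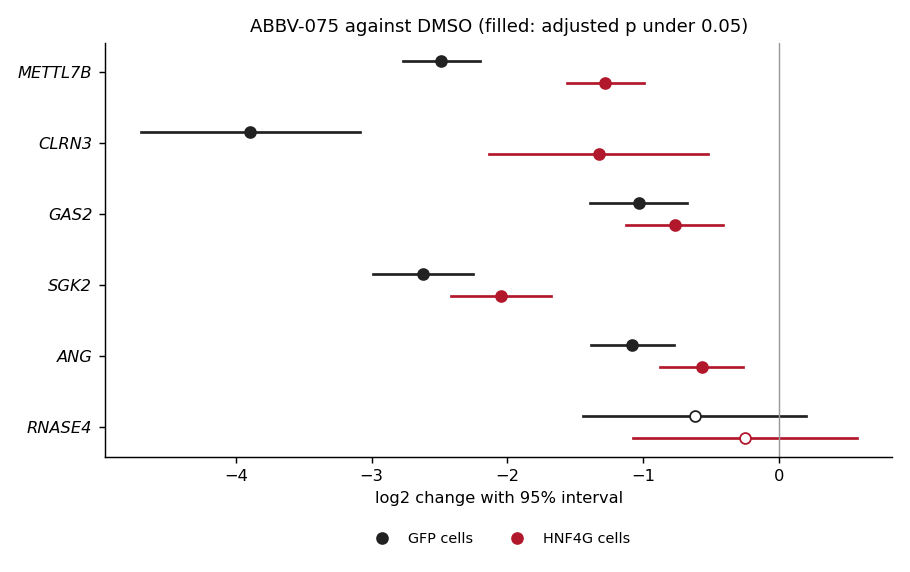
Log2 change of each gene with ABBV-075 against DMSO (horizontal axis) in GFP cells (black) and HNF4G cells (red), with 95% intervals as bars, from 2 libraries per group. Filled points had a limma adjusted p under 0.05. Each point of HNF4G cells lies to the right of that of GFP cells, and the intervals of METTL7B and of CLRN3 do not overlap between the lines.

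The difference between the lines in their response to ABBV-075 was tested as an interaction. It was positive for all 6 genes, at 2.57 ± 0.49 for CLRN3 (limma, SE, 95% interval 1.43 to 3.71) and 1.21 ± 0.17 for METTL7B (0.81 to 1.61). For SGK2 it was 0.57 ± 0.23 (0.06 to 1.09), for ANG 0.51 ± 0.19 (0.08 to 0.94), for RNASE4 0.37 ± 0.50 (-0.79 to 1.53) and for GAS2 0.27 ± 0.22 (-0.24 to 0.77). With limma 0 of the 6 genes were called (adjusted p = 0.32 for METTL7B and 0.74 for CLRN3), while 4 had an unadjusted p under 0.05. Of all genes tested 0.0112% were called higher, which is 2 genes, HNF4G and VIL1, and the median over all genes was 0.01. The edgeR quasi-likelihood test also called 0 of the 6, and DESeq2 called METTL7B (1.20, adjusted p = 0.010). METTL7B was also called with GC content and length corrected (1.19, limma adjusted p = 0.0016). When the 2 libraries of low GC content were left out both METTL7B (1.15, limma adjusted p = 0.00082) and CLRN3 (2.76, limma adjusted p = 0.039) were called, but each HNF4G group then has 1 library and the spread comes from the GFP pairs alone.

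For HNF4G against GFP cells, 1 of the 6 genes (CLRN3) was called higher under DMSO and 0 lower, where 0.783% of all genes were called higher. Under ABBV-075 the count was 3 higher (METTL7B, CLRN3 and SGK2) and 0 lower, where 1.64% of all genes were called higher. The medians over the 6 genes were 0.31 under DMSO and 0.87 under ABBV-075, each beside 0.00 over all genes tested. These comparisons share libraries with those of ABBV-075 against DMSO, so their values are given side by side and their agreement is not a result. Whether a gene called under ABBV-075 and not under DMSO differs between them is what the interaction tests.

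**Figure D5:**
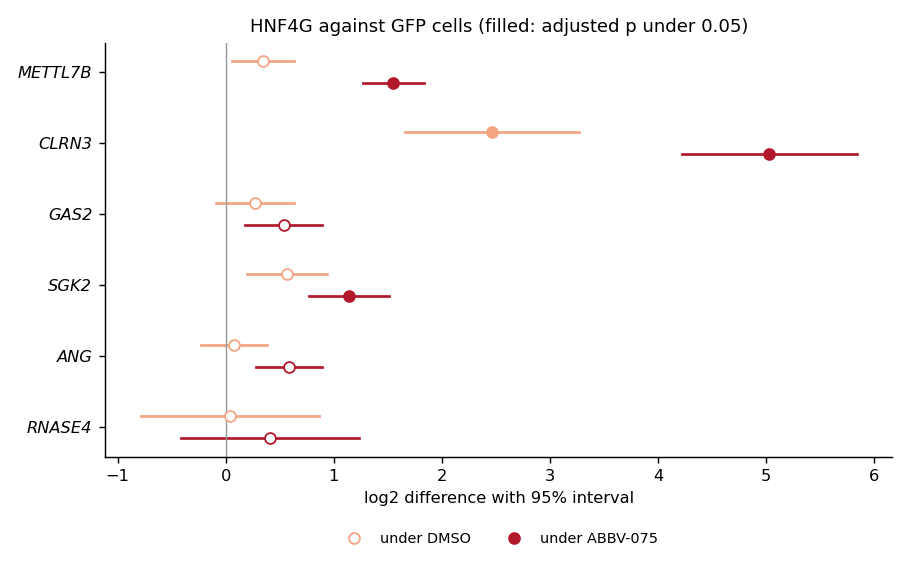
Log2 difference of each gene between HNF4G and GFP cells (horizontal axis) under DMSO (orange) and under ABBV-075 (red), with 95% intervals as bars, from 2 libraries per group. Filled points had a limma adjusted p under 0.05, which held for CLRN3 under DMSO and for METTL7B, CLRN3 and SGK2 under ABBV-075.

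Inhibited HNF4G cells were also set against untreated GFP cells. CLRN3 stood at 221% of its GFP-DMSO mean in HNF4G-ABBV-075, a log2 difference of 1.13 ± 0.35 (SE, limma adjusted p = 0.038), where 16.0% of all genes were called higher. That call was not made without either library of either group (0.96 to 1.31, limma adjusted p = 0.076 to 0.18), at a pseudocount of 0.5 (limma adjusted p = 0.057), with no filter (limma adjusted p = 0.078) or with untrended limma (adjusted p = 0.052). The other 4 signature members were called lower, where 18.8% of all genes were. SGK2 stood at 35.6% (-1.48 ± 0.16, limma adjusted p = 0.000465) and METTL7B at 52.3% (-0.94 ± 0.12, limma adjusted p = 0.0011). GAS2 stood at 71.2% (-0.50 ± 0.16, limma adjusted p = 0.039) and ANG at 71.1% (-0.49 ± 0.13, limma adjusted p = 0.023). RNASE4 stood at 85.0% (-0.21 ± 0.36, limma adjusted p = 0.68). Without GFP-DMSO library 1 or 2 the calls of ANG (limma adjusted p = 0.13 and 0.095) and GAS2 (0.11 and 0.19) were lost. That of GAS2 was also lost without HNF4G-ABBV-075 library 2 (-0.32, limma adjusted p = 0.12) and without GFP-ABBV-075 library 1 or 2 (0.071 for both). Fits with the replicate block or with only the compared groups ended both calls, with limma adjusted p = 0.053 and 0.054 for ANG and 0.076 and 0.085 for GAS2. DESeq2 (-0.48, adjusted p = 0.053), quantile normalization (-0.43, limma adjusted p = 0.091), no filter (limma adjusted p = 0.063) and untrended limma (adjusted p = 0.063) ended that of GAS2 as well, so it was lost in 11 of 25 alternatives.

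Lists around the 6 genes were read in the same fit. ABBV-075 lowered all 6 of the other signature genes in GFP cells, while in HNF4G cells 5 fell and HNF4G rose. Under DMSO 4 of them were higher in HNF4G cells, and under ABBV-075 5 were, HNF4G itself, the transgene, being among both. AKR1C3, a steroid-converting reductase, was left at 25.6% of its DMSO mean by ABBV-075 in GFP cells and 44.4% in HNF4G cells, and the cell-surface mucin gene MUC13 at 15.8% and 36.1%. For UGT2B15, which glucuronidates androgens, these shares were 14.2% and 14.5%. APOH, a plasma glycoprotein gene, went the other way, with 37.2% left in GFP cells and 16.5% in HNF4G cells, an interaction of -1.12 ± 0.40 (SE) that was not called (limma adjusted p = 1). It was higher in HNF4G cells under DMSO (2.44 ± 0.28, limma adjusted p = 0.0081), and under ABBV-075 the difference was 1.32 ± 0.28 (limma adjusted p = 0.070).

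Markers of hepatocytes and gut fell with ABBV-075, as 5 of the 6 genes did. ALB, which encodes serum albumin, VIL1, the actin-bundling villin of brush borders, and CDH17, an intestinal cadherin, made up this list, and all 3 were called lower in both lines. In GFP cells ALB was left at 26.5%, VIL1 at 19.5% and CDH17 at 12.1% of the DMSO mean, and in HNF4G cells at 34.1%, 64.1% and 12.6%. Under ABBV-075 all 3 were higher in HNF4G cells, by 2.87-, 4.75- and 4.65-fold, and under DMSO ALB (2.23-fold) and CDH17 (4.47-fold) were. The sum over the 3 genes ranged in GFP cells from 14498 to 15583 normalized counts under DMSO and from 3715 to 3777 under ABBV-075, and in HNF4G cells from 29410 to 33762 and from 11117 to 12700. VIL1 read 3181 and 2883 normalized counts in GFP-DMSO and 589 and 593 in GFP-ABBV-075, and its HNF4G-DMSO libraries read 4511 and 4261, with 2747 and 2874 after inhibition. Its interaction was called (1.71 ± 0.14, SE, limma adjusted p = 0.018), whereas those of ALB (0.36 ± 0.17) and CDH17 (0.00 ± 0.30) were not (limma adjusted p = 1 for both).

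Of the prostate luminal markers, KLK3, which encodes prostate-specific antigen, was left by ABBV-075 at 18.8% in GFP cells and 12.3% in HNF4G cells, and KLK2, a related kallikrein, at 31.2% and 24.4%. Both were lower in HNF4G than in GFP cells, by log2 differences of -1.81 ± 0.17 (SE, KLK3) and -1.13 ± 0.11 (KLK2) under DMSO and of -2.41 ± 0.17 and -1.48 ± 0.11 under ABBV-075 (limma adjusted p = 0.0043 for both under DMSO, 0.000583 and 0.000623 under ABBV-075). Under ABBV-075 TMPRSS2 was higher in HNF4G cells (1.04 ± 0.10, limma adjusted p = 0.0021). In inhibited HNF4G cells KLK2, KLK3, KRT18 and EPCAM were lower, and FOLH1 higher, than in untreated GFP cells. The sum over the list ranged from 141132 to 143100 normalized counts in GFP-DMSO and from 131187 to 131750 in GFP-ABBV-075, while for HNF4G cells it ran from 110417 to 117379 under DMSO and from 115755 to 120768 with the inhibitor. Of the neuroendocrine markers, CHGA, which encodes chromogranin A, fell in both lines (-1.35 ± 0.27 and -1.54 ± 0.27, limma adjusted p = 0.0070 and 0.0042), and SYP was not called. The part of these marker lists in the results on the members was not tested.

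The relatives of ANG and RNASE4 were nearly silent. Of 13 RNase A superfamily genes and partners of angiogenin 2 passed the filter and 0 were called in any comparison. The 11 superfamily genes stood at or below 8.73 normalized counts in each library, with RNASE1 the highest. RNH1, the ribonuclease inhibitor that binds angiogenin, read 2530 to 3745 normalized counts in 6 libraries and 1289 and 1328 in HNF4G-DMSO library 2 and HNF4G-ABBV-075 library 1. PLXNB2, a receptor of angiogenin, read 3545 and 4517 in these and 5841 to 8891 in the others. The 2 libraries in which both genes were lowest are those of low GC content.

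Of 10 tested SGK kinases, activators and substrates, ABBV-075 raised 3 and lowered 0 in GFP cells, and raised 2 and lowered 1 in HNF4G cells. The share of all genes called higher with ABBV-075 is not given here, so the counts raised cannot be set against it. SGK1, the stress-induced paralog, changed by 0.67 ± 0.19 (SE, limma adjusted p = 0.030) in GFP cells, from 39.7 and 46.5 to 66.1 and 71.5 normalized counts, opposite in sign to SGK2. In HNF4G cells the change of SGK1 was 0.18 ± 0.19 and was not called (limma adjusted p = 0.52). PDPK1, the kinase that activates SGKs, rose in GFP cells (0.52 ± 0.10, limma adjusted p = 0.0050) and in HNF4G cells (0.58 ± 0.10, limma adjusted p = 0.0033), as did the transcription factor gene FOXO3 (0.57 ± 0.12 and 0.59 ± 0.12). NDRG1, whose product is phosphorylated by SGKs, fell in HNF4G cells (-0.58 ± 0.12, limma adjusted p = 0.0079). Between HNF4G and GFP cells 0 of the 10 were called.

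Of 6 paralogs of the other members, 3 passed the filter. METTL7A fell with ABBV-075 in both lines, with log2 changes of -0.61 ± 0.09 (SE, limma adjusted p = 0.0014) in GFP cells and -0.69 ± 0.09 (limma adjusted p = 0.00087) in HNF4G cells, with levels of 15499 to 16571 normalized counts in the DMSO libraries and 9410.0 to 10423 in the inhibited ones. GAS2L1 and GAS2L3 were not called with ABBV-075 in either line, GAS2L3 was higher in inhibited HNF4G than in untreated GFP cells (0.60 ± 0.17, limma adjusted p = 0.027), and CLRN1 and CLRN2 were listed at 0 in all 8 libraries.

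Of the 10 nearest protein-coding neighbours of the 6 genes, 6 were tested. With ABBV-075 PTPRE, 14162 bases from CLRN3, fell in GFP cells (-1.0 ± 0.19, SE, limma adjusted p = 0.0060), and it was higher in HNF4G than in GFP cells under ABBV-075 (1.07 ± 0.19, limma adjusted p = 0.038). SLC17A6, 246006 bases from GAS2, fell in both lines (-2.74 ± 0.48 and -1.90 ± 0.48, limma adjusted p = 0.0037 and 0.019). IFT52, 2700 bases from SGK2, rose in both (0.63 ± 0.11 and 0.64 ± 0.11, limma adjusted p = 0.0042 in each). SVIP, L3MBTL1 and BLOC1S1 were not called.

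The genes most like each member were taken by Pearson's r of log2(normalized count + 1) over the 8 libraries among 13100 genes, as a description. The points share their 4 groups, so r mostly reflects the group means. METTL7B was nearest to SEPTIN8 and HOXB6 (r = 0.996 and 0.995), CLRN3 to HHLA2 and ADRA2A (0.995 and 0.993), GAS2 to FAM13A and VASH2 (0.998 and 0.997), and SGK2 to CLDN11 and ZNF618 (0.997 and 0.995). For ANG these were HNRNPA1P10 and SEPTIN8 (0.992 and 0.985). RNASE4 was nearest to HSPA9P1 and NHLRC1 (0.940 and 0.901). HNRNPA1P10 and HSPA9P1 are pseudogenes whose reads may belong to their parent genes. HHLA2, a ligand of the B7 family, had normalized counts of 37.7 and 34.4 in GFP-DMSO and of 2.20 and 4.61 in GFP-ABBV-075, with 184 and 179.8 in HNF4G cells under DMSO and 102 in both libraries under ABBV-075. Among the 6 genes, r over the 8 libraries ran from 0.81 to 0.99 between the 5 signature members and was 0.81 between ANG and RNASE4.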

How the data were processed

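RNA from 22Rv1 cells, an established line, was captured on poly-A and sequenced. Per the submitters' processing notes reads were aligned with STAR 2.6, and the study's methods, which name another version, give hg38. Which program counted the reads, on which strand and annotation release, and how the size factors arose are not given in the sources used here. Each deposited value, a signal, is a normalized count: the authors divided gene reads by 1 size factor per library, so it is relative to the library, and no spike-in was analysed here. Each value above 0 was a whole multiple of 1 step per library (100% within 0.01 of a whole number), so reads were recovered. In GFP-DMSO library 2 the step, 1.01, is too close to 1 for a general test of steps. The table held 57605 entries, with 2 duplicates (dropped here) and 17600 identifiers lacking a symbol.

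Genes with a mean of at least 10 (17876) were fitted as log2(normalized count + 1) with limma 3.58.1 (R 4.3.3), trended, as 4 group means over 8 libraries. Tests were two-sided, adjusted by Benjamini-Hochberg over all genes tested and called at 0.05. Fold changes on this scale understate changes of low genes. Alternatives were other pseudocounts, filters and scalings, replicate block, GC content and length correction, edgeR 4.0.16, DESeq2 1.42.0 and leaving out libraries. The scripts were tested on simulated data. Gene models and GC content came from GENCODE 44, and promoter windows from RefSeq. These held windows for 5 of the 6 genes and none for SGK2, which was therefore not searched for motifs. The motifs were chosen after the windows were seen. Members and lists were chosen with earlier results of these data known. By a written rule the text names all 6 genes, the called genes of each list with up to 4 others, the locus neighbours, and the 2 genes most like each member. Some genes of these lists, called ones among them, are counted but not reported singly here.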

Additional observations from a re-analysis of the deposited data

How the results depend on the processing

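Over 25 alternatives, 1 of them chosen after seeing the data, the 6 genes gave 882 values, of which 819 kept their direction and side of the threshold, 39 lost a call and 16 gained one. The other 8 changed sign without being called in either fit (7 of RNASE4, 1 of ANG). The count called lower in GFP cells stayed at 4 to 5. In HNF4G cells it was 3 with only the compared groups fitted, and 3 to 5 when leaving out 1 library. The count higher in HNF4G cells under DMSO was 0 with no filter, with a mean of at least 100 (which drops CLRN3) and with untrended limma, 2 when the low-GC libraries were left out, 3 with GC content and length corrected, 2 with that correction and the replicate block, and 0 to 1 when leaving out 1 library. Under ABBV-075 it was 2 with a mean of at least 100 and with only the compared groups, 2 to 4 when leaving out 1 library, and 5 when the low-GC libraries were left out and with the correction, with or without the replicate block. Those last 3 fits also called 1676, 1041 and 742 genes of all tested in place of 293. The interaction count was 1 with DESeq2, 2 when the low-GC libraries were left out, and 1 with the correction, with or without the block. Against untreated GFP cells, the lower count was 2 with the replicate block or only the compared groups, and 2 to 4 when leaving out 1 library. The higher count was 0 at a pseudocount of 0.5, with no filter, with a mean of at least 100 and untrended, and 0 to 1 when leaving out 1 library. With a pseudocount of 8 the mean log2 ratio of ANG to RNASE4 moved from 5.37 to 4.99 in GFP-DMSO, 4.91 to 4.36 in GFP-ABBV-075, 5.41 to 5.04 in HNF4G-DMSO and 5.09 to 4.66 in HNF4G-ABBV-075. Where the construction does not show it (fewer genes or libraries), the cause was not tested.

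Same-numbered libraries share only a number. Their deviations correlated at -0.60 between HNF4G-DMSO and HNF4G-ABBV-075 and at -0.13 to 0.13 in the other pairs of groups. Over all genes the replicate block gave 67 calls higher under DMSO in place of 140, and 149 under ABBV-075 in place of 293. Numbers crossed in HNF4G-ABBV-075, the alternative chosen after seeing the data, gave 189 and 389. Crossing reverses the sign of the correlation of -0.60 by construction, so these counts are not evidence of a pairing. The GC and length correction gave 642 under DMSO, and DESeq2 gave 224 and 321. Genes called higher in the interaction numbered 2 with limma and with edgeR, 10 with DESeq2, 16 with the correction and 320 when the low-GC libraries were left out. With 2 libraries a group and 9 to 26 reads, the depth of RNASE4 limits what can be seen for it.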
